A study of Rattus norvegicus with 24 samples.

Results

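Potassium channel genes were followed in thoracic propriospinal (TPS) neurons of the rat after low thoracic transection. A gene was taken where 1 probe of the array carried a single symbol beginning with Kcn. Kcnj10 was set aside, which left 82 genes with 1 probe each. Of these, 81 had a mean log2 intensity above the lowest 15% of all 27342 probes, that is above 5.05, and they made up 81 of the 23240 probes tested. The remaining gene, Kcnj1, had a mean of 5.01. The 81 genes comprised 8 Kcna, 3 Kcnab, 1 Kcnb, 2 Kcnc, 3 Kcnd, 5 Kcne, 10 modifier (Kcnf, Kcng, Kcns and Kcnv), 8 Kcnh, 4 Kcnip, 13 Kcnj, 11 Kcnk, 5 Kcnma and Kcnmb, 3 Kcnn, 3 Kcnq and 2 Kcnt genes.

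All animals were female Long Evans rats aged 77 ± 10 days whose TPS neurons had been labelled by Fluoro-Gold, a fluorescent retrograde tracer, injected into the lumbosacral enlargement. Transected rats had the cord cut at the low thoracic level 1 week after labelling and were sampled 3 days (n = 4), 1 week (n = 4), 2 weeks (n = 2) or 1 month (n = 2) later. Control rats were labelled but not injured and carry the labels 4-day, 2-week and 1-month control (n = 4 each), while the group table of the study counts their survival from the tracer injection. The 4-day controls were the controls of both the 3-day and the 1-week group, so these comparisons share arrays. By the group table the 1-week group lived longer after labelling than these controls, so that pair differs in this time as well. Labelled neurons were cut one by one with a laser from the intermediate gray matter above the lesion, pooled for each animal, and their RNA was amplified and hybridized to 1 Rat Gene 1.0 ST array per animal. A pool holds neurons of several laminae and whatever lay in the cut area, so a lower value cannot tell fewer cells of a type from less RNA per cell.

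Potassium channels set the resting potential of a neuron, end its action potentials and fix how fast it can fire again. Voltage-gated subunits (Kcna to Kcnd, Kcnh and Kcnq) open on depolarization, inward rectifiers (Kcnj) and tandem pore channels (Kcnk) act near rest, and Kcnma, Kcnn and Kcnt channels respond to calcium or sodium. Cytoplasmic and membrane partners (Kcnab, Kcne, Kcnip, Kcnmb) and silent modifier subunits (Kcnf, Kcng, Kcns, Kcnv) change the trafficking and gating of the pore subunits.

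Array medians lay between 73.6 and 81.3 in intensity. The 11 markers of neurons gave summed intensities of 26839 to 29471 at 3 days and 27391 to 29939 in the 4-day controls, and all 11 were above the filter. So were all 14 markers of microglia and macrophages, 10 of 12 of astrocytes and 10 of 12 of oligodendrocytes, so the pools also held RNA read by glial probes. The 4-day controls 3 and 4 were the least like their group, with quality weights of 0.328 and 0.477 against 0.616 to 1.66 for the other 22 arrays.

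In the pools from uninjured rats the mean log2 intensity of the 81 genes over the 12 controls ran from 5.13 to 10.68, with a median of 6.57. Levels of different probes cannot be ranked against each other, so they are given by subfamily only as what each probe read. Among the Kcna genes, whose products carry low-threshold delayed rectifier and axonal currents, Kcna1 read 10.68 ± 0.089 (SD, n = 12) and Kcna2 read 9.80 ± 0.21. Their cytoplasmic beta subunit genes Kcnab2 and Kcnab1 read 9.34 ± 0.45 and 9.04 ± 0.19. The tandem pore gene Kcnk9, which encodes an acid-sensitive leak channel, read 9.54 ± 0.20.

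The somatodendritic A-type current, which delays firing, runs through Kcnd pores. Calcium-binding Kcnip subunits and dipeptidyl peptidase-like subunits such as Dpp6 join these pores. Kcnd2 read 9.46 ± 0.26, Kcnip4 9.47 ± 0.21 and Kcnip1 9.04 ± 0.26 over the 12 controls. The fast delayed rectifier genes Kcnc1 and Kcnc2 read 8.84 ± 0.15 and 8.79 ± 0.15. In all, 15 of the 81 genes had a control mean above 8 and 26 had one below 6. The SD over the 12 controls had a median of 0.17 and was largest for Kcnab2 (0.45), for Kcnj16, an inward rectifier subunit (0.36), and for Kcnmb2, a beta subunit of the large calcium-activated channel (0.36).

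At 3 days after transection, 4 of the 81 genes passed the test against the 4-day controls (4.94%, with 2.89% of all 23240 probes called), 1 higher and 3 lower (2% and 0.886% of all probes). Kcnd2, Kcns3 and Kcnc1 fell to between 0.601 and 0.747 times the control intensity, and Kcnj5 rose to 1.62 times. The call was an adjusted p under 0.05 from limma, with the Benjamini-Hochberg correction over all probes tested. Over the 81 genes, 54 were lower and 27 higher, with a median log2 difference of -0.042 against -0.0082 for all probes. At an unadjusted p under 0.05 the shares were 14 of 81 (17.3%) and 14.2% of all probes. The groups did not overlap for 6 genes (7.41%), against 5.51% of all probes.

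**Figure D1:**
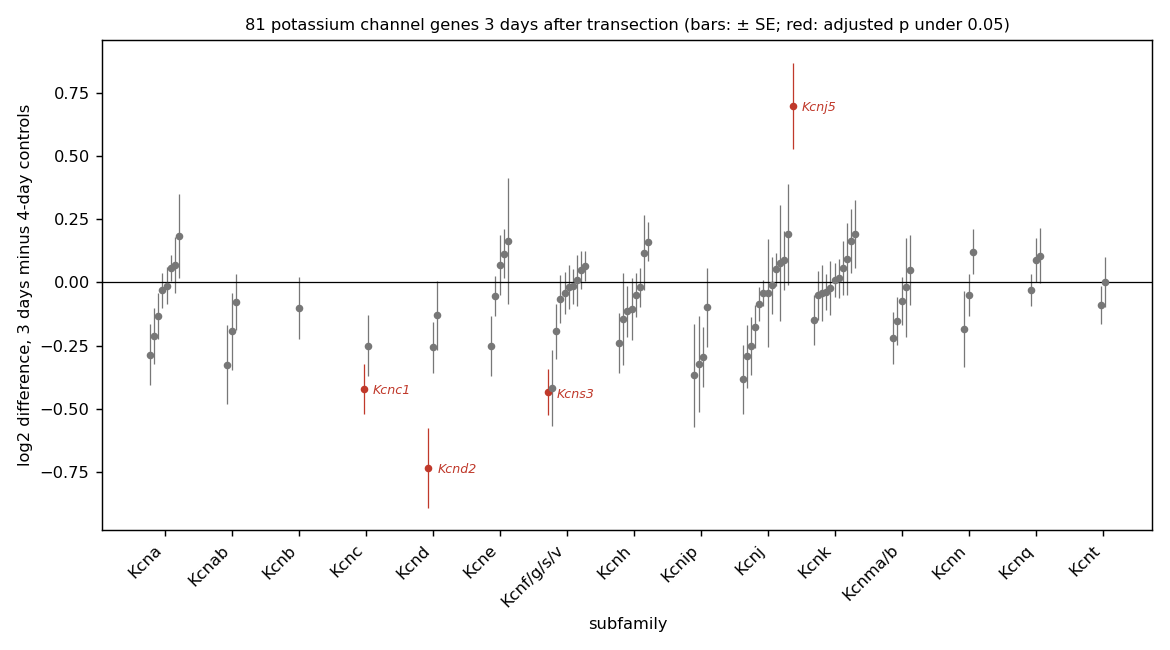
Log2 difference between the 3-day transected rats (n = 4) and the 4-day controls (n = 4) for the 81 genes, grouped on the horizontal axis by subfamily; bars are ± SE of the fit and red marks the 4 genes with an adjusted p under 0.05. Kcnd2 lies lowest at -0.73 and Kcnj5 highest at 0.70, and the 77 other genes lie between -0.42 and 0.19.

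The regions around the start sites of these 4 genes are shown to place them in the genome, since their RNAs moved in both directions at 3 days. Each is 300 bases of the RefSeq table for build GRCr8, from 250 before to 50 after the start site that the table takes. That site is the first base of the gene in the RefSeq gene table for Kcns3 and Kcnc1, but lies 890 bases inside the gene for Kcnd2 and 101 bases inside it for Kcnj5. Capitals mark the GC box GGGCGG on either strand.
Kcnd2 promoter, GRCr8 chr4:50742235-50742534, plus strand: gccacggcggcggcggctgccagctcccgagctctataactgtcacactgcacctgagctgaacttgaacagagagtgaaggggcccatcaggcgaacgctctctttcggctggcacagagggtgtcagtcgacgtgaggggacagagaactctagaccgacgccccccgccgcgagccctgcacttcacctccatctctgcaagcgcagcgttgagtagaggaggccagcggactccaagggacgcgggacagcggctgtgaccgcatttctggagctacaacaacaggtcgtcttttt
Kcns3 promoter, GRCr8 chr6:39584056-39584355, minus strand: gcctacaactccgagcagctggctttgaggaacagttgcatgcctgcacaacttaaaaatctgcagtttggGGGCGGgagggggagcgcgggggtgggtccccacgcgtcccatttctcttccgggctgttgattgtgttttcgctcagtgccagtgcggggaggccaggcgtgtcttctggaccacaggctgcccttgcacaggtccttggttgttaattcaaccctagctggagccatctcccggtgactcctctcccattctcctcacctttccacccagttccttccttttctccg
Kcnc1 promoter, GRCr8 chr1:106038997-106039296, plus strand: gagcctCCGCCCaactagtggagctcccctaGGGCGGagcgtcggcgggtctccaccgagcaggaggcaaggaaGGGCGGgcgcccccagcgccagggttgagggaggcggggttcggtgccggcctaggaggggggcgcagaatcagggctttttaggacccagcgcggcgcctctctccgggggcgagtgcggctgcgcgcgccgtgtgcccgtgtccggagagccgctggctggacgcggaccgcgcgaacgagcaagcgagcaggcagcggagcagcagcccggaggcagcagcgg
Kcnj5 promoter, GRCr8 chr8:39011047-39011346, minus strand: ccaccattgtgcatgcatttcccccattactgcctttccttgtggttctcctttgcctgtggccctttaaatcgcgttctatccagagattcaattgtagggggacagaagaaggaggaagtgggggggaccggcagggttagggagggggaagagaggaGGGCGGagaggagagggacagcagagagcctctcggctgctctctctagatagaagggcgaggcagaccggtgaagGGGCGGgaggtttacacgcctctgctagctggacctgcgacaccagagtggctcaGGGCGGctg
The window of Kcnd2 held no GC box, that of Kcns3 held 1, and those of Kcnc1 and Kcnj5 held 3 each. None of the 4 held the AP-1 letters TGANTCA, the CRE letters TGACGTCA, CCAAT or TATAAA on either strand. Of 27457 promoter windows in the table, 34.9% held GGGCGG, 7.33% TGANTCA, 1.91% TGACGTCA, 37.7% CCAAT and 14.3% TATAAA. Windows were found for 56 of the 81 genes, where the shares were 50% (28 of 56) for GGGCGG, 3.57% (2) for TGANTCA, 0% for TGACGTCA, 25% (14) for CCAAT and 1.79% (1) for TATAAA. Base composition differed as well, with a median GC content of 60.5% in these 56 windows and 52.3% in all windows. The GC content was 61.7% for Kcnd2, 58.3% for Kcns3, 74.0% for Kcnc1 and 59.0% for Kcnj5. These are matches of letters and not tested sites.

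Kcnd2 encodes a pore subunit of the somatodendritic A-type current. Its log2 intensities were 9.24, 9.37, 9.08 and 9.81 in the 4-day controls and 8.90, 8.56, 8.87 and 8.24 at 3 days. Every 3-day rat read below every 4-day control. The difference was -0.73 (SE 0.16, adjusted p = 0.0113 by limma). The gene kept its call in each of the 8 fits that left out 1 array of either group, with differences from -0.83 to -0.59.

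The remaining Kcnd and Kcnip genes also had negative differences, so that all 7 lay below their controls, from -0.73 to -0.099 with a median of -0.30. Of all 81 genes 54 were lower, while 47.6% of all probes were higher. The 7 genes were put together after their values were seen. Only Kcnd2 among them passed the test. Kcnd3 gave -0.26 (adjusted p = 0.228) and Kcnd1 -0.13 (0.777), both being further pore subunits of this current. The calcium-binding subunit genes gave -0.37 for Kcnip1 (0.45), -0.32 for Kcnip3 (0.497), -0.30 for Kcnip4 (0.228) and -0.099 for Kcnip2 (0.872).

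Dpp6, a membrane partner of Kcnd channels that lacks peptidase activity, read 9.57, 9.50, 9.35 and 9.57 in the 4-day controls and 9.20, 9.13, 9.37 and 9.01 at 3 days. The groups overlapped only through 3-day rat 3, which read above control 3. The difference was -0.32 (SE 0.076, adjusted p = 0.0221). The call was lost in 4 of the 8 fits without 1 array, those without 3-day rats 2 or 4 or 4-day controls 1 or 4 (adjusted p up to 0.0879), with only the 8 arrays compared (0.309) and with only the 4-day controls 1 and 2 as controls (0.0551). Dpp10, the other gene of this kind, gave -0.29 (adjusted p = 0.425). Dpp6 was the only call among 31 measured genes of a list of 37 partners of potassium channels and genes of potassium handling. Of all probes 2.89% were called at 3 days, 0.886% as lower. Of the 31 genes 8 were higher and 23 lower, with a median of -0.063.

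Kcns3 encodes a silent subunit that forms no channel alone and modifies Kcnb pores. It read 8.41, 8.20, 8.62 and 8.40 in the 4-day controls and 7.92, 7.95, 8.19 and 7.83 at 3 days. The highest 3-day value, of rat 3, was just under the lowest control. The difference was -0.43 (SE 0.091, adjusted p = 0.00999), and the call held in each of the 8 fits without 1 array. Kcnv1, another silent subunit, gave -0.42 but with a wider error (SE 0.15, adjusted p = 0.167). Over the 10 modifier genes 7 were lower and 3 higher, with a median of -0.030. Kcnb2, a pore subunit that such modifiers join, gave -0.10 (adjusted p = 0.818).

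Kcnc1 encodes a fast delayed rectifier that lets neurons fire at high rates. It read 8.82, 8.67, 9.01 and 8.82 in the 4-day controls and 8.36, 8.38, 8.60 and 8.30 at 3 days, without overlap. The difference was -0.42 (SE 0.099, adjusted p = 0.0221). The call was lost in 4 of the 8 fits without 1 array, those without 3-day rats 1, 2 or 4 or 4-day control 3 (adjusted p up to 0.0758), and after cyclic loess (0.058). Kcnc2, of the same kind, gave -0.25 (adjusted p = 0.355).

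Kcnj5 encodes a subunit of the inward rectifiers opened by G proteins. It read 5.32, 5.24, 5.19 and 5.13 in the 4-day controls, close to the filter of 5.05, and 5.71, 5.82, 5.49 and 6.64 at 3 days. All 3-day rats read above all controls, and rat 4 was far above the others. The difference was 0.70 (SE 0.17, adjusted p = 0.0278). The call was lost in 5 of the 8 fits without 1 array, those without 3-day rats 2 or 4 or 4-day controls 2, 3 or 4 (adjusted p from 0.0502 to 0.0717), and the difference was smallest, at 0.46, without 3-day rat 4. The other subunits of these channels did not pass and were not higher, with -0.38 for Kcnj6 (adjusted p = 0.156), -0.29 for Kcnj3 (0.271) and -0.012 for Kcnj9 (0.984). Kcnj6 read between 6.88 and 7.06 in the 4-day controls and between 6.47 and 6.69 at 3 days. The groups of Kcnj6 did not overlap, and the same was true of the ATP-sensitive channel gene Kcnj11, which gave -0.25 (adjusted p = 0.317).

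Among the axonal channel genes Kcna1 gave -0.031 (adjusted p = 0.917) and Kcna2 -0.29 (0.265). Kcna2 read 10.01, 9.82, 9.75 and 9.74 in the 4-day controls and 9.45, 9.40, 9.90 and 9.43 at 3 days. Of the 3-day rats, 3 lay below all controls, and rat 3 lay among them. Without rat 3 the test called 6 genes in place of 4, with Kcna2 and Kcnma1 added, while the calls among all probes rose from 2.89% to 4.54%. The Kcna median was -0.022, with 3 genes higher and 5 lower, and Kcna4, a subunit that inactivates, gave -0.21 (adjusted p = 0.421). The 3 Kcnab genes were all lower with a median of -0.19, at -0.32 for Kcnab3 (0.352), -0.19 for Kcnab2 (0.665) and -0.076 for Kcnab1 (0.858).

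No gene of the remaining subfamilies passed at 3 days. The tandem pore genes split into 6 higher and 5 lower (median 0.0090), with Kcnk10 at 0.19 (adjusted p = 0.611) and Kcnk2 at -0.15 (0.579), both mechanically gated leak channels. The 8 Kcnh genes had a median of -0.078, with Kcnh2 at -0.24 (0.38) and Kcnh8 at 0.16 (0.357). Calcium-activated genes gave -0.22 for the large channel pore Kcnma1 (0.338), -0.15 for its subunit Kcnmb3 (0.541), 0.12 for the small channel Kcnn1 (0.622) and -0.19 for Kcnn3 (0.68). Kcnq3 and Kcnq5, which carry the M current, gave 0.089 (0.751) and 0.10 (0.774). The M current genes thus lay within about 1 SE of their controls. Of the single-span subunit genes, Kcne5 gave -0.25 (0.35) and Kcne4 0.11 (0.701). The sodium-activated channel genes gave -0.091 for Kcnt1 (0.683) and 0.0020 for Kcnt2 (0.997).

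Markers of other cells moved at the same time, when 2% of all probes were called higher and 0.886% lower. All 14 markers of microglia and macrophages were higher at 3 days, 7 of them called, with a median of 0.87. Their summed intensity was 9361 to 12936 at 3 days and 3500 to 8204 in the 4-day controls. Of 10 astrocyte markers measured, 8 were lower and 2 of these called, with a median of -0.16 and summed intensities of 11062 to 13426 against 9507 to 15774. Of 11 neuronal markers 1 was called higher and 1 lower, with a median of -0.064. Of 10 oligodendrocyte markers 1 was called higher, and none of 6 endothelial and 4 ependymal markers was called. The part of these shifts in the values of the potassium channel genes was not tested.

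The calls at 3 days rest on the error shared by all 7 groups, some of which had a smaller spread. The SD of Kcnd2 was 0.31 in both compared groups and 0.13 to 0.23 in the other groups. Kcns3 had 0.17 in the 4-day controls and 0.15 at 3 days, against 0.042 to 0.14. Kcnj5 had 0.50 at 3 days and 0.081 in the 4-day controls, against 0.069 to 0.28. Kcnc1, with 0.14 and 0.13, lay within the range of the other groups (0.043 to 0.21). With only the 8 arrays compared 0 of the 81 genes passed (smallest adjusted p = 0.178, 22 of all probes called). With only the 4-day controls 1 and 2 as controls 0 passed, while 1.23% of all probes did in place of 2.89%. The adjusted p was then 0.0622 for Kcnd2, 0.152 for Kcns3, 0.225 for Kcnc1 and 0.209 for Kcnj5.

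**Figure D2:**
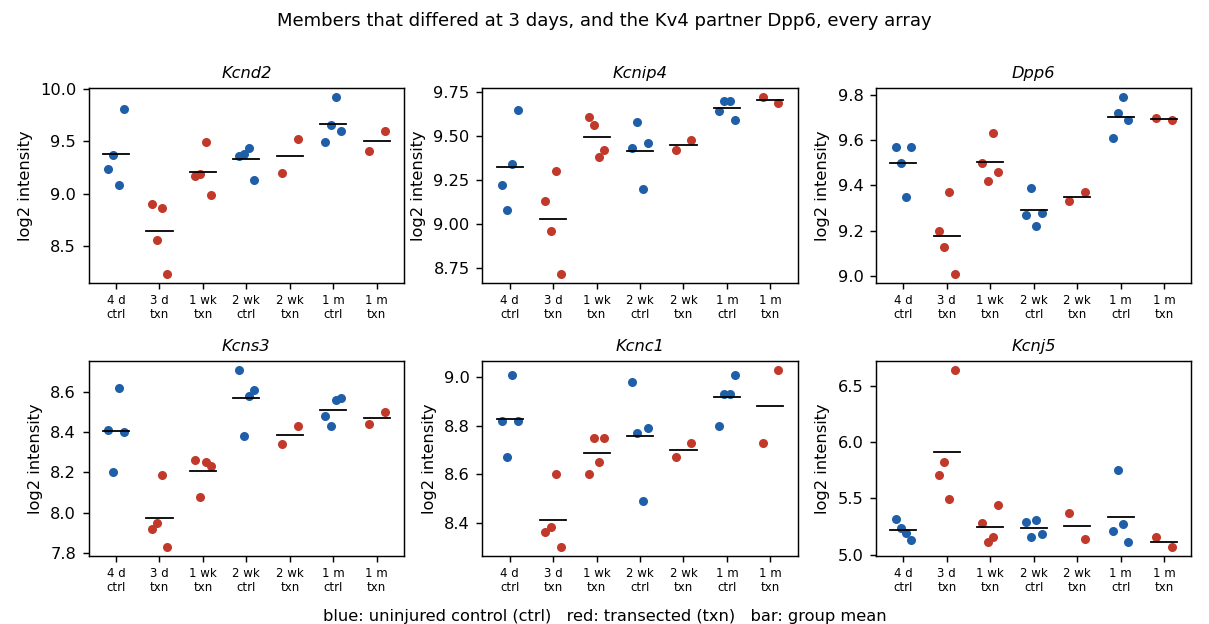
Log2 intensity in each of the 24 arrays (1 point per rat, bar at the group mean) for Kcnd2, Kcnip4, Dpp6, Kcns3, Kcnc1 and Kcnj5, with uninjured controls in blue and transected rats in red. The 3-day rats lie apart from the 4-day controls for Kcnd2, Kcns3, Kcnc1 and Kcnj5, while in Kcnip4 they lie apart from the 1-week rats.

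From 1 week on, none of the 81 genes passed against the controls of each group, and 0% of all probes passed. At 1 week 41 genes were higher and 40 lower (smallest adjusted p = 0.999), with an unadjusted p under 0.05 for 6 of them (7.41%) and for 4.44% of all probes. At 2 weeks 34 were higher and 47 lower (0.801), with 5 (6.17%) and 5.29%. At 1 month 37 were higher and 44 lower (adjusted p = 1), with 3 (3.7%) and 3.44%. The 2-week and 1-month groups held 2 rats, and the SE of the difference had a median of 0.13 there and of 0.11 at the earlier times.

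The differences of the genes called at 3 days were smaller at each later time. These genes were chosen by their 3-day values, so smaller values at other times can follow from that choice. Kcnd2 gave -0.17 (SE 0.16) at 1 week, 0.033 (0.19) at 2 weeks and -0.16 (0.19) at 1 month. Kcnc1 gave -0.14 (0.099), -0.058 (0.12) and -0.039 (0.12). Kcnj5 gave 0.031 (0.17), 0.017 (0.21) and -0.22 (0.21). None of these values exceeded 2 SE in size. Kcns3 gave -0.20 (0.091) at 1 week, -0.19 (0.11) at 2 weeks and -0.046 (0.11) at 1 month. It had the smallest p of the 81 genes when the 4 differences were averaged, at -0.22 (SE 0.056, adjusted p = 0.113). None of the 81 genes passed for this average, where 0.404% of all probes did and 10 of the 81 (12.3%) and 8.87% of all probes had an unadjusted p under 0.05.

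The 3-day and the 1-week rats were also compared directly. Of the 81 genes 2 differed (2.47%), and 2.47% of all probes did, with 1 gene higher at 3 days (1.93% of all probes) and 1 lower (0.542%). Kcnip4 read 9.13, 8.96, 9.30 and 8.72 at 3 days and 9.61, 9.56, 9.38 and 9.42 at 1 week. All 1-week rats read higher than all 3-day rats, by 0.46 (SE 0.12, adjusted p = 0.0373). Kcnj5 was 0.67 higher at 3 days (SE 0.17, adjusted p = 0.0397), its 1-week values being 5.28, 5.11, 5.16 and 5.44. Kcnd2 was 0.57 lower at 3 days without overlap but did not pass (adjusted p = 0.0606). Dpp6 was 0.33 lower at 3 days (adjusted p = 0.0225), with 1-week values of 9.50, 9.42, 9.63 and 9.46. With only the 8 arrays compared neither of the 2 members passed (smallest adjusted p = 0.17), nor did Dpp6 (0.194). In the 8 fits without 1 array the count ran from 0 to 3, and it was 0 in 6 of them, those without 3-day rats 1, 2 or 4 or 1-week rats 1, 2 or 4. Kcnip4 lost its call in 7 of these fits (adjusted p up to 0.154), Kcnj5 in 6 (up to 0.126) and Dpp6 in 5 (up to 0.0963).

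The change of the transection effect between 3 days and the late times was tested as an interaction. None of the 81 genes passed between 3 days and 2 weeks or between 3 days and 1 month, where 0.0904% of all probes passed in each. The values nearest to the threshold were -0.54 (SE 0.16) for Kcnd3 against 2 weeks (adjusted p = 0.381) and 0.92 (SE 0.27) for Kcnj5 against 1 month (adjusted p = 0.302). Kcnd2 gave -0.77 (SE 0.25, adjusted p = 0.458) against 2 weeks and -0.57 (SE 0.25, 0.601) against 1 month. With all 12 controls pooled the controls cancel, so the contrast only compares the 3-day with the 1-month transected rats. It is then no difference of effects. These rats differed for 5 genes, namely Kcnc1, Kcnd2, Kcnip4, Kcnj5 and Kcns3, and for 3.45% of all probes. Their array medians were 77.1 to 80.8 at 3 days and 73.7 to 75.0 at 1 month.

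**Figure D3:**
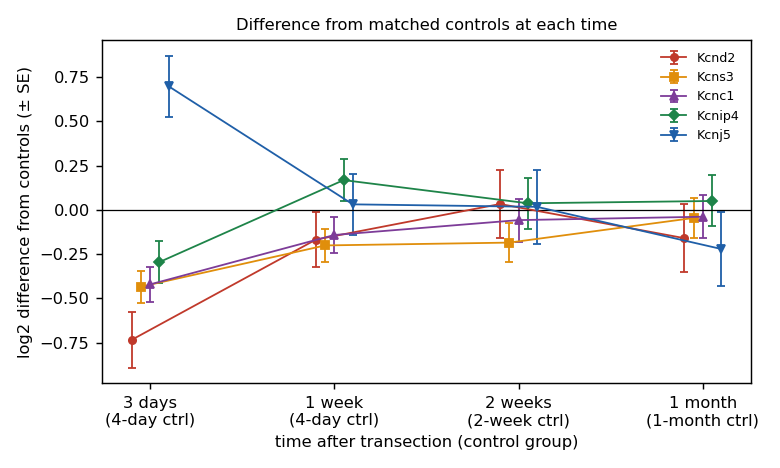
Log2 difference between transected rats and their controls at each of the 4 times for the 4 genes called at 3 days and for Kcnip4, with bars of ± SE; the 3-day and 1-week points share the 4-day controls. Kcnd2 runs from -0.73 at 3 days to -0.17 at 1 week, and Kcnj5 from 0.70 to 0.031.

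The genes with the smallest p at each later time were not those called at 3 days, Kcns3 at 1 week excepted. At 1 week these were Kcnk4, a mechanically gated leak channel, at 0.44, Kcnn1 at 0.24 and Kcnv2 at 0.13 among the higher, and Kcnma1 at -0.28, Kcnd3 at -0.27 and Kcns3 at -0.20 among the lower (adjusted p = 0.999 for each). Kcnk4 read 6.94, 7.21, 6.53 and 6.74 at 1 week and 6.39, 6.34, 6.68 and 6.27 in the 4-day controls. The groups of Kcnk4 overlapped through 1-week rat 4 and control 3. Groups did not overlap for 4 of the 81 genes (4.94%), against 1.76% of all probes.

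At 2 weeks the higher genes were Kcnq5 at 0.38, Kcnd3 at 0.28 and Kcnip2 at 0.35, and the lower were Kcna10 at -0.28, Kcnj11 at -0.34 and Kcnj3 at -0.32. Their adjusted p lay between 0.801 and 0.952. Kcnq5 read 6.90 and 7.15 in the transected rats and 6.70, 6.57, 6.62 and 6.69 in the 2-week controls. Both transected rats exceeded all controls of their time for Kcnq5. At 1 month Kcnv2 gave -0.26, Kcns1 -0.26 and Kcnmb2 -0.56, and Kcnb2 gave 0.27, Kcnn3 0.31 and Kcnq1 0.12, all with an adjusted p of 1. Groups did not overlap for 6 of the 81 genes at 2 weeks (7.41%, 17.7% of all probes) and for 8 at 1 month (9.88%, 13.5%).

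Of the 11 comparisons made, that of the 1-month with the 2-week controls, both uninjured, gave the most calls among these genes. The 1-month controls differed from the 2-week controls in 8 of the 81 genes (9.88%), and 10.2% of all probes did. Kcnab2, Kcnh2 and Kcnma1 were higher in the 1-month controls (3 genes, with 6.18% of all probes higher), and 5 were lower (4% of all probes), namely Kcnh3, Kcne2, Kcnmb3, Kcnj11 and Kcnj12. At an unadjusted p under 0.05 the shares were 28.4% of the 81 genes (23) and 30.1% of all probes. Groups did not overlap for 19 genes (23.5%), against 23% of all probes.

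Kcnab2, a cytoplasmic subunit that brings Kcna channels to the axon, read 8.82, 9.43, 8.67 and 8.81 in the 2-week controls and 9.71, 9.77, 9.83 and 9.90 in the 1-month controls. All 1-month values were higher, and 2-week control 2 was the nearest to them. The difference was 0.87 (SE 0.15, adjusted p = 0.00452), or 1.83 times the intensity. The transected rats read 8.64 and 8.80 at 2 weeks and 9.62 and 9.72 at 1 month, so that Kcnab2 was low at 2 weeks and high at 1 month with and without injury.

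Kcnh2, which encodes a slowly deactivating channel of the ether-a-go-go family, read between 6.70 and 7.22 in the 2-week controls and between 7.41 and 7.51 in the 1-month controls. The 1-month controls were all higher and close together. The difference was 0.51 (SE 0.12, adjusted p = 0.0141), and the transected rats read 6.88 and 7.04 at 2 weeks and 7.58 and 7.47 at 1 month. Kcnma1 was 0.39 higher (SE 0.10, adjusted p = 0.0237), from 7.84 to 8.05 in the 2-week and from 8.16 to 8.43 in the 1-month controls. Compared with the 4-day controls, the 2-week controls were also 0.38 lower for Kcnma1 without overlap, which did not pass (adjusted p = 0.129).

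Among the genes lower in the 1-month controls, Kcnh3, of the same family as Kcnh2, gave -0.32 (SE 0.078, adjusted p = 0.0158), running from 6.10 to 6.32 in the 2-week and from 5.82 to 5.94 in the 1-month controls. Kcne2, a single-span beta subunit, gave -0.41 (adjusted p = 0.0303), and its groups overlapped, from 6.65 to 6.92 and from 6.09 to 6.67. Kcnmb3 gave -0.33 (adjusted p = 0.0325). The inward rectifier genes gave -0.39 for Kcnj11 (adjusted p = 0.036) and -0.22 for Kcnj12 (0.04), from 7.45 to 7.72 against 6.98 to 7.43 for Kcnj11 and, for Kcnj12, with no 2-week control below 7.82 and no 1-month control above 7.73.

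The transected rats of the same times, which did not enter that contrast, moved the same way between 2 weeks and 1 month for 7 of the 8 genes, and their arrays did not overlap for 6 of these (75%), with 2 rats at each time and no test made. Of all 2366 probes called between these controls, 93.9% moved the same way in the transected rats and 75.9% did so without overlap, and over all probes tested the shares were 75% and 44%. The differences of their means were 0.95 for Kcnab2, 0.56 for Kcnh2, 0.15 for Kcnma1, -0.35 for Kcne2, -0.22 for Kcnj12, -0.17 for Kcnh3 and -0.16 for Kcnmb3. Kcnj11 gave 0.030 and was the exception. Both control and transected rats of 1 month had lower array medians than those of 2 weeks, at 73.6 to 75.6 against 78.6 to 80.7 in the controls and 73.7 to 75.0 against 79.6 to 80.3 in the transected rats.

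**Figure D4:**
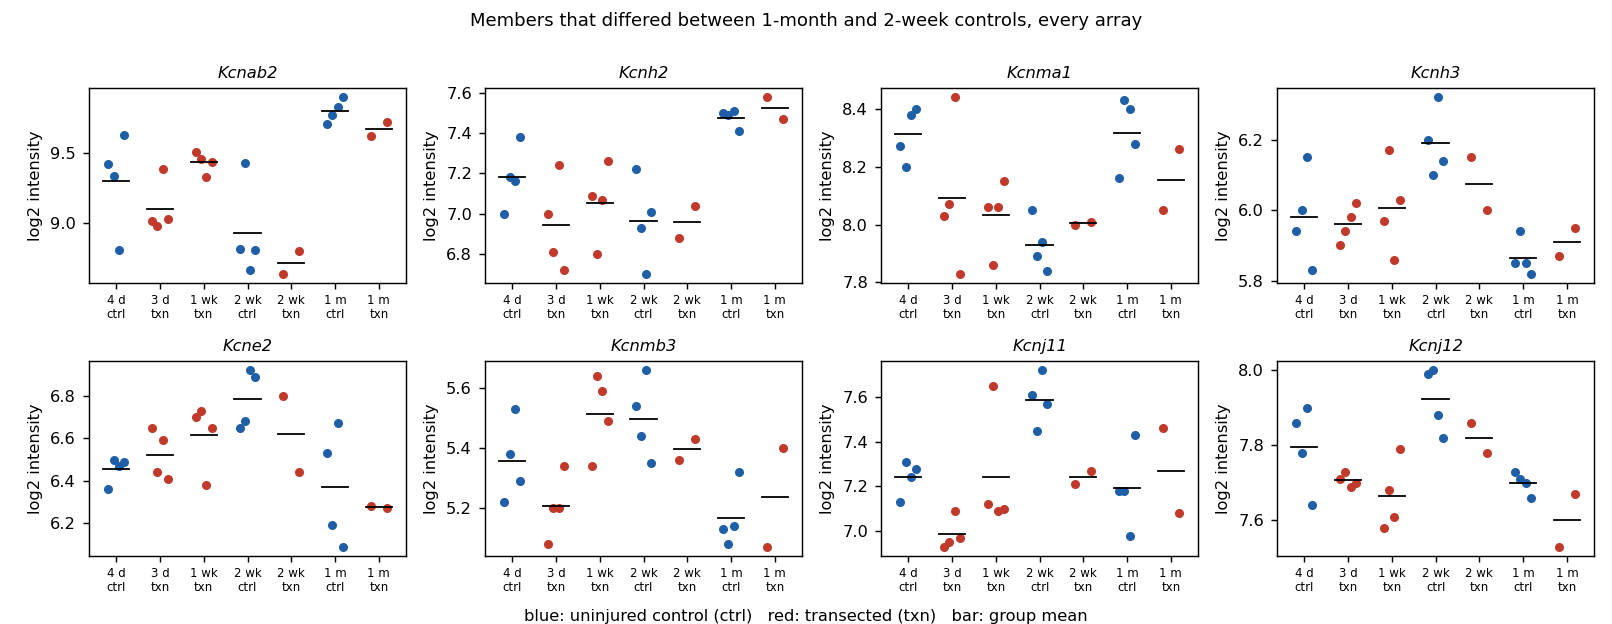
Log2 intensity in each of the 24 arrays (1 point per rat, bar at the group mean) for the 8 genes that differed between the 1-month and the 2-week controls, with controls in blue and transected rats in red. In Kcnab2 and Kcnh2 both the control and the transected rats of 1 month lie above all those of 2 weeks.

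Partners of the channels moved between these control groups as well. Of the 31 genes measured 6 were called higher at 1 month and 0 lower, with a median of 0.18. Of all probes 6.18% were called higher and 4% lower. The 6 partner genes were Slc12a5, the neuronal chloride and potassium exporter, at 0.77 (adjusted p = 0.00437), the scaffold gene Dlg4 at 0.69 (0.00797), the paranodal gene Cntnap1 at 0.56 (0.00773), the pacemaker channel gene Hcn2 at 0.50 (0.0302), the juxtaparanodal gene Cntn2 at 0.43 (0.0401) and Dpp6 at 0.41 (0.00618). Hcn2 and Cntn2 each lost the call in 6 of the 8 fits without 1 array (adjusted p up to 0.091 and 0.12), and the other 4 kept it in all 8. Slc12a5 read 7.54, 8.16, 7.47 and 7.65 in the 2-week and 8.33, 8.59, 8.55 and 8.43 in the 1-month controls. In 5 of these 6 genes, Cntnap1 excepted, and in Kcnab2, control 2 was the highest of the 2-week controls. The summed markers of that array were also the highest of its group for every cell type listed. They were 12650 against 9318 to 10137 for astrocytes and 29530 against 27985 to 29244 for neurons. For oligodendrocytes they were 11604 against 10381 to 11421, and for microglia and macrophages 4824 against 3976 to 4238.

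Markers of several cells were higher in the 1-month than in the 2-week controls, where 6.18% of all probes were called higher and 4% lower. All 10 astrocyte markers measured were higher, 4 of them called, with a median of 0.35 and summed intensities of 11736 to 13727 against 9318 to 12650. Of 10 oligodendrocyte markers 9 were higher and 3 called (median 0.29), at 12700 to 13664 against 10381 to 11604. Of 11 neuronal markers 8 were higher and 2 called (median 0.084), at 30113 to 31109 against 27985 to 29530. Of 6 endothelial and mural markers 5 were higher and 1 called, while 5 of 14 microglial markers were higher and none called. The part of these shifts, and of the array medians, in the 8 calls was not tested.

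The count of calls between these groups moved with the scaling and with single arrays. It was 4 of 81 (2 higher, 2 lower) after a further quantile normalization (4.58% of all probes) and 5 after cyclic loess (4.81%), and without 2-week control 3 it was 1, Kcnab2 (2.64%). Kcnab2 was called in each of the 8 fits without 1 array, and Kcnh2 and Kcnh3 in 7. The call was lost in 4 of these fits for Kcne2, in 5 for Kcnma1 and Kcnmb3, in 6 for Kcnj11 and in 7 for Kcnj12.

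The 4-day controls did not differ from the later controls in any of the 81 genes. Against the 2-week controls 0% of all probes passed, and the 14 of 81 genes with an unadjusted p under 0.05 (17.3%) compare with 14.3% of all probes. The values nearest to the threshold were those of Kcnma1 (above), Kcnd3 at -0.34 and Kcnip2 at -0.42 among the lower in the 2-week controls, and Kcnj11 at 0.35, Kcne2 at 0.33 and Kcnh3 at 0.21 among the higher. Without 4-day control 3 the count was 5 (Kcnab2, Kcnd3, Kcnh3, Kcnj16 and Kcnk18), with 5.54% of all probes called. For Kcnj16, which pairs with other inward rectifiers in glia, that control read 8.13 and the others 9.34, 9.21 and 9.65. The summed astrocyte markers of the same array were 9507, against 14143 to 15774 in the other 3, and its microglial markers summed to 3500, against 6818 to 8204. Set against the 4-day controls, all 14 microglial markers read lower at 2 weeks (median -0.62, summed intensities of 3976 to 4824) and at 1 month (median -0.61, 3826 to 4678), though none was called in either comparison. The part of these shifts in the values of the potassium channel genes was not tested.

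Against the 1-month controls 0.0043% of all probes and none of the 81 genes passed, with 11 genes (13.6%) and 13.2% of all probes at an unadjusted p under 0.05. The values nearest to the threshold were 0.41 for the weakly rectifying leak channel gene Kcnk1 (adjusted p = 0.145), 0.50 for Kcnab2 and 0.36 for Kcnj3, all higher at 1 month, and -0.23 for Kcnmb1, -0.36 for Kcnv1 and -0.19 for Kcnmb3. Without 4-day control 4 the count was 3, Kcnab2, Kcnip4 and Kcnk1, with 2.44% of all probes called. Groups did not overlap for 8 genes (9.88%, 5.16% of all probes) between the 2-week and 4-day controls and for 7 (8.64%, 5.58%) between the 1-month and 4-day controls.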

How the data were processed

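RNA of laser-dissected neurons was measured on 24 arrays, 1 per rat. Per the labels, the authors normalized the arrays by RMA, and the study's methods name quantile normalization in GeneSpring GX, whose version is not given in the sources used here. The deposited values are intensities on a linear scale (17 to 7980), and arrays give no read depth, so the number of arrays limits the precision. Log2 of the deposited intensity was taken here, and probes with a mean in the lowest 15% (log2 5.05, intensity 33.2) were left out. Quantile normalization sets arrays to a like distribution, so a shift of all genes can be hidden. The deposited arrays still differed in their medians, at 73.6 to 75.6 in the 1-month and 78.6 to 80.7 in the 2-week controls. Probes were joined to genes through GEO's platform annotation (15097 of 27342 probes with 1 symbol, 323 with several, 11922 with none). One Kcn probe with several symbols was not used, and all 82 symbols matched a current RefSeq symbol.

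A model of the 7 groups was fitted over all 24 arrays with limma 3.58.1 in R 4.3.3 (residual degrees of freedom 17, prior 3.64), with Benjamini-Hochberg adjustment over 23240 probes and a threshold of 0.05. The methods name a 2-way analysis of variance over 4 times; here each time was compared with its controls and the 4 differences were also averaged. Each sample is 1 animal. The fit was tested on simulated data. Members and lists were chosen with earlier results of these data known. Named are all members called in any comparison, the 2 with the smallest p in each subfamily at 3 days, the 3 with the smallest p in each direction in every other comparison, the 3 most variable in the controls, and called partner genes; members of the same complexes, subfamily totals, and the genes given for their baseline level were named besides, after their values were seen.

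Alternatives were testing all probes, testing only probes above the median, robust moderation with an intensity trend, array weights, further quantile or cyclic loess normalization, fits of the compared groups, pooled controls, means over a gene's probes, the methods' t-test, the replicate number as a block, and fits without 1 array. The use of 4-day controls 1 and 2 only was chosen after seeing the data. Tables and plots were made in Python 3.11.15 with pandas 2.3.3, numpy 2.4.6 and matplotlib 3.10.9.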

Additional observations from a re-analysis of the deposited data

Results flagged for a closer look

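Among 53 named genes and 265 gene and group combinations of 4 arrays, 19 arrays in 17 genes stood apart from the rest of their group by Dixon's criterion, which chance alone meets in about 1 in 20 groups. The log2 value of the array is given with that of its nearest neighbour. In 3-day rat 3 the values stood high for Kcna2 (9.90, next 9.45), Kcnab2 (9.39, next 9.03) and Kcnj3 (8.06, next 7.71). In 1-week rat 2 Kcnj11 stood high (7.65, next 7.12), while Kcnk1 (7.53, next 8.01), Kcns3 (8.08, next 8.23) and Kcnt2 (5.65, next 6.04) stood low. In 4-day control 4 the low values were those of Kcnj15 (5.03, next 5.29), Kcnq3 (7.19, next 7.25) and Kcns1 (5.99, next 6.15), and in 4-day control 3 that of Slc12a5 (7.83, next 8.25).

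Single values of the other groups were those of Kcna10 in 1-week rat 1 (5.42, next 5.39), Kcnb2 in 3-day rat 4 (5.74, next 6.08), Kcns1 in 3-day rat 2 (6.15, next 6.17), Hcn2 in 2-week control 2 (7.97, next 7.32), Kcnj15 in 2-week control 4 (5.29, next 5.44), Kcna5 in 1-month control 1 (6.10, next 6.14), Kcnh2 in 1-month control 4 (7.41, next 7.49) and Kcnv1 in 1-month control 3 (5.14, next 5.75).

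Between 3 days and 1 week 3 genes differed in the direct test, so that their effects against the shared 4-day controls differed. These were Kcnip4 at -0.46, Kcnj5 at 0.67 and the partner Dpp6 at -0.33 (log2, 3 days minus 1 week). Each lost its call in at least 5 of the 8 fits without 1 array.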

How the results depend on the processing

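The counts of called members changed as follows. At 3 days 4 genes were called (2.89% of all probes), against 7 with all 12 controls pooled (9.11% of all probes). The count was 0 with only the compared groups (0.0947%) and with 4-day controls 1 and 2 only (1.23%). It was also 0 with the methods' t-test (0 of all probes, and 8 members at an unadjusted p under 0.05). Without 1 array each the count ran from 2 to 6, the 2 being Kcnd2 and Kcns3 without 3-day rat 2, 3-day rat 4 or 4-day control 3. Between 3 days and 1 week 2 genes were called, against 0 with only the compared groups, with the methods' t-test and with the replicate block, and 0 to 3 without 1 array. For the average over the 4 times the count ran from 0 to 1 without 1 array, the 1 being Kcns3 without 3-day rat 3 or 4-day control 2. For the effect at 3 days minus that at 1 month 0 became 5 with pooled controls (3.45% of all probes). Pooled controls cancel in that contrast, which then compares the transected rats of the 2 times alone. Between the 2-week and 4-day controls 0 became 1 with array weights (Kcnab2) and 1 with 4-day controls 1 and 2 only (Kcnip3), and ran from 0 to 5 without 1 array; between the 1-month and 4-day controls it ran from 0 to 3. Between the 1-month and 2-week controls 8 became 17 with array weights (23.3% of all probes), 5 with cyclic loess and 4 with quantile normalization again, and ran from 1 to 9 without 1 array. The cause of these changes was not tested. Fits of the compared groups alone use fewer arrays to estimate the error and take it from the spread of those groups only.

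Differences near 0 changed sign for 2 genes at 3 days. Kcnt2 (0.0020) gave -0.017 with quantile normalization again and negative values without 3-day rats 2 (-0.010), 3 (-0.012) or 4 (-0.0022) or 4-day control 2 (-0.064), while its highest value without 1 array was 0.046. Kcnq5 (0.10) ran from -0.0034 without 4-day control 1 to 0.20 without 3-day rat 2. The median baseline level stayed between 6.53 and 6.59.

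No pairing of rats by replicate number was seen. Arrays of different groups with the same number had a mean correlation of deviations of 0.0215 (55 pairs) and other arrays -0.00631 (189 pairs). Such a mean cannot show that the numbers stand for no shared handling. With the replicate block the count of calls at 3 days was 4, as without it, and between 3 days and 1 week it was 0 in place of 2, while Dpp6 gave an adjusted p of 0.0722 in place of 0.0225. Each member has 1 probe, so averaging probes leaves its values as they are. Probes near the filter, such as that of Kcnj5 (5.26 in the controls against 5.05), lie close to the lowest intensities of the array.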
